A study of Mus musculus with 16 samples.

Results

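The axon guidance ligands and receptors are the secreted and membrane-bound cues that steer growing axons, together with the receptors that read them. They were taken here as every gene whose symbol in the probe annotation begins as a class 3 to 7 semaphorin, a plexin, a neuropilin, an ephrin, an Eph receptor, a netrin, an Unc5 receptor, a Slit or a Robo. The rule found 57 of the 12393 genes with a symbol of their own on the array: 17 semaphorins, 7 plexins, 2 neuropilins, 8 ephrins, 11 Eph receptors, 3 netrins, 3 Unc5 symbols, 3 Slits and 3 Robos. The symbol Unc50, 1 of the 3, belongs to an unrelated Golgi protein and is no netrin receptor. Each gene was read from its brightest probe set, and all values are log2 signal on 16 Affymetrix M430A_2 mouse arrays.

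The arrays came from 4 samples of mouse melanocytes without disease and from melanomas of 2 inducible mouse models. The 6 iMet tumours carry the genotype Tyr-rtTA;Tet-Met;Ink4a/Arf-/-, in which a tetracycline-controlled activator under the tyrosinase promoter switches on the receptor tyrosine kinase Met. The 6 iHRAS* tumours, whose titles read iRas, carry Tyr-rtTA;Tet-HRASV12G;Ink4a/Arf-/-, with an activated Ras in the place of Met. Both models lack Ink4a/Arf, and no genotype is given for the melanocytes, so a difference between tumours and melanocytes takes in the transgene, the deletion and tumour growth together. The labels give no age, strain or treatment. Nor do they say that the samples are separate animals, and the p-values then measure no more than the spread between these arrays. The design text set the models against each other as melanomas that can or cannot metastasise. The labels name isolated melanoma cells, whereas the design text names tumour RNA, and the arrays read high for stromal markers, as given further on.

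As background, these families work as ligand and receptor pairs. Class 3 semaphorins are secreted and bind a neuropilin that signals with a plexin, while most membrane-bound semaphorins bind plexins directly; Met carries the same sema domain as the plexins. Ephrins, tethered by a lipid anchor in class A and by a transmembrane stretch in class B, bind Eph receptor tyrosine kinases on the neighbouring cell and can signal back into their own cell. Netrins are read by DCC and neogenin, which attract, and by Unc5 receptors, which repel, and Slits are read by Robos. Melanocytes come from the neural crest, whose cells migrate along paths set by several of these cues.

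The promoters of 4 genes are shown because Sema7a (higher) and Epha4 and Unc5b (lower) stood apart from melanocytes in both tumour models, and because Sema5a held its difference between the models under each alternative. They are the 250 bases before the transcription start in the RefSeq promoter table (build GRCm38.p6), written 5′ to 3′ on the gene's strand, with the GC box GGGCGG or its complement CCGCCC in capitals. Sema7a lies at chr9:57939862-57940111 on the plus strand, Sema5a at chr15:32244563-32244812 on the plus strand, Epha4 at chr1:77515089-77515338 on the minus strand and Unc5b at chr10:60831582-60831831 on the minus strand.
Sema7a: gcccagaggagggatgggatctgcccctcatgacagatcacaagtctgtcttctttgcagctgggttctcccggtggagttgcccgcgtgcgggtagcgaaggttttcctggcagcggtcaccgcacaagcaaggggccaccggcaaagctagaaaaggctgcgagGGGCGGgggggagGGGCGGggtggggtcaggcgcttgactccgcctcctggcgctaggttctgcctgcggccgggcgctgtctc
Sema5a: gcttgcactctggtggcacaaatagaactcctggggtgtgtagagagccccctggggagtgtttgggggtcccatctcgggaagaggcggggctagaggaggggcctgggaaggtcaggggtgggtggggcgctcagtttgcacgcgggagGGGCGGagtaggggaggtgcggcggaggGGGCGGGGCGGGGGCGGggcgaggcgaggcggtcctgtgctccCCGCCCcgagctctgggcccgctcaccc
Epha4: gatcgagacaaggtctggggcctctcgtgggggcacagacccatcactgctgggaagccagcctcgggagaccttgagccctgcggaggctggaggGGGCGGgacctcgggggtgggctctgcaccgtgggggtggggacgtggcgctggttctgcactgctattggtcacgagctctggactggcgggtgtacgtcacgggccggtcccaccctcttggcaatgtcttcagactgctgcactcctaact
Unc5b: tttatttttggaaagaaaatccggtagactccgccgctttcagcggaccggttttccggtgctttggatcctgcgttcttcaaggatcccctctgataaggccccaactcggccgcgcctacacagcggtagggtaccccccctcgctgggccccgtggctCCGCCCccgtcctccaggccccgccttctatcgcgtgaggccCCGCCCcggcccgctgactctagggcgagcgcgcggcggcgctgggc
These stretches are rich in G and C, at 66.4% in Sema7a, 72.0% in Sema5a, 66.0% in Epha4 and 66.8% in Unc5b. Sema7a holds 2 GC boxes, Sema5a 5, which overlap in part, Epha4 1 and Unc5b 2. These 4 promoters were picked by signal, and genes with higher and with lower signal were not compared for this motif. Promoters were matched for 50 of the 57 genes, and 78.0% of them hold a GC box on either strand, against 53.2% of the 9883 promoters of genes on the array and 32.9% of all 27025 promoters. Their median G and C content was 65.4%, against 58.4% for genes on the array. The AP-1 site TGAGTCA or TGACTCA was in none of the 50, against 3.91% of array genes. The E-box CACGTG was in 4.0%, namely Sema6d and Epha8, against 7.74%, and the Ets motif CCGGAAG was also in 4.0%, Unc50 and Ephb6, against 11.6%. The TATA motif TATAAA was in 4.0%, Slit2 and Efnb2, against 9.14%. Efna1, Efna3 and Efna4 are neighbours on the chromosome with no protein-coding gene between them, and so are Robo3 and Robo4.

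The arrays were uneven in what they hold besides melanocytic cells, and values that bear on the results are repeated beside them. Melanocyte arrays 1 and 3 correlated at r = 0.958 and arrays 2 and 4 at 0.940, against 0.867 to 0.915 across these pairs. Among iHRAS* tumours, arrays 2 and 3 correlated at 0.894 with each other but at 0.822 to 0.859 with the other 4. The pigment genes Tyr, Tyrp1 and Dct lay below the signal cut-off (log2 6.21, the 40th percentile) on average in all 3 groups, melanocytes included, so the labelled cell type was not borne out by these 3 markers. Pmel was above the cut-off in melanocytes and iHRAS* tumours (6.70 and 6.67) and below it in iMet tumours (5.52). Mitf (5.67) and Kit (2.48) were below it in melanocytes and above it in iMet (7.56 and 6.89) and iHRAS* tumours (7.34 and 6.93). Sox10 averaged 9.66 in melanocytes, 6.90 in iMet tumours and 10.16 in iHRAS* tumours. Mean signal over 9 keratinocyte markers ran from 4.85 to 9.15 in iMet tumours and 8.93 to 10.8 in iHRAS* tumours, and was 7.63, 9.39, 6.85 and 9.49 in melanocyte arrays 1 to 4. This mean hides opposite directions. Krt5, Krt14, Perp and Sfn averaged 12.57, 12.73, 11.21 and 9.22 in melanocytes, above their iHRAS* means of 11.07, 11.80, 10.90 and 8.18. Krt10, Krt15, Cdh1, Epcam and Dsp averaged lower in melanocytes (6.82, 6.70, 3.77, 1.63 and 10.43) than in iHRAS* tumours (10.99, 6.78, 8.82, 8.64 and 10.91). Mean signal over 7 endothelial markers was 7.82 to 9.30, 6.76 to 7.81 and 4.04 to 5.20 in iMet tumours, iHRAS* tumours and melanocytes. Schwann cell markers (6 measured of 8) ran from 3.27 to 5.0 in iMet tumours, 7.25 to 8.85 in iHRAS* tumours and 6.87 to 8.55 in melanocytes. In such bulk samples, fewer cells of a type and less RNA per cell cannot be told apart.

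**Figure D1:**
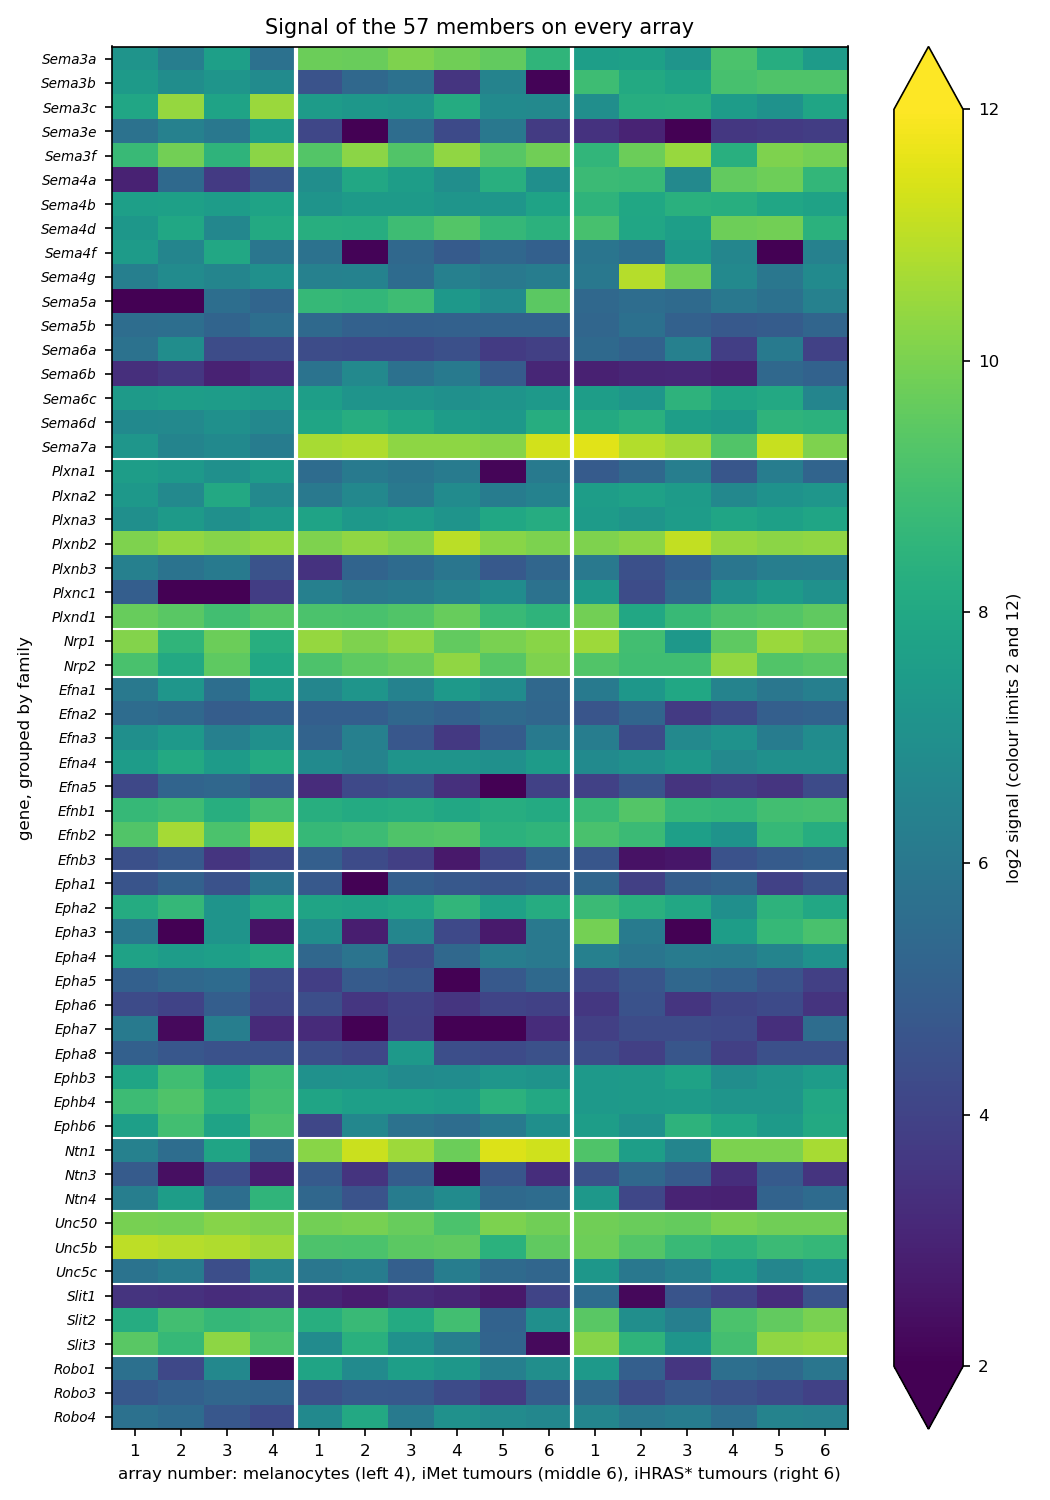
Log2 signal of the 57 axon guidance ligands and receptors (rows, by family) on the 16 arrays (columns, by group), with the colour scale running from 2 to 12. Colours compare arrays along a row only, since probe sets differ in brightness. Sema7a and Ntn1 are on average brighter in the tumours than in melanocytes, Unc5b and Epha4 are dimmer, and Sema3b and Slit3 are dim in the iMet columns.

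Of the 57 genes, 16 passed the signal cut-off on too few arrays for any test: Sema3e, Sema5b, Sema6a, Sema6b, Plxnb3, Efna2, Efna5, Efnb3, Epha1, Epha5, Epha6, Epha7, Epha8, Ntn3, Slit1 and Robo3. Their highest group mean was 6.43, that of Sema3e in melanocytes. The other 41 were tested against melanocytes and 36 of them between the tumours, where Sema4f, Plxna1, Efna3, Epha4 and Ntn4 were too dim. A gene that is bright in 1 group passes the cut-off only through that group, so the counts describe these arrays and are no support for a difference.

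Between the tumour models, 10 of the 36 genes tested differed (27.8%), while 20.9% of all 8058 genes tested did so (limma, Benjamini-Hochberg adjusted p under 0.05). Sema3a, Sema5a and Robo1 were higher in iMet tumours (3 of 36, against 11.2% of all genes). Sema3b, Sema4b, Plxna2, Efnb1, Ephb6, Unc5c and Slit3 were lower (7 of 36, against 9.7%). The median difference over the 36 genes was -0.11, and over all genes tested 0.03. The 2 groups did not overlap for Sema5a among the genes that were higher, or for Sema3b, Efnb1 and Ephb6 among those that were lower, whereas 5.83% and 4.89% of all genes were so separated. On the deposited scaling the median over all genes was 0.23 and 80.1% of all calls were higher (53.6% on the main scaling), while 3 of the 57 were called higher and 6 lower. With the keratinocyte and endothelial marker means of each array as covariates, Sema5a alone of the 10 passed in limma, with 2 of the 36 higher and 5 lower at an unadjusted p under 0.05, and calls over all genes fell from 905 higher and 782 lower to 20 and 37. In that fit Sema5a was at 3.68, Sema3a at 1.51, Sema3b at -4.72 and Efnb1 at -0.83. Larger than in the main fit by over 1.5 times were Slit3 at -6.23, Unc5c at -1.82 and Plxna2 at -1.42. Smaller by over 1.5 times were Ephb6 at -0.56, Robo1 at 0.75 and Sema4b at -0.42. The markers themselves differ between the models, with endothelial means of 7.82 to 9.30 in iMet and 6.76 to 7.81 in iHRAS* tumours. Sizes in this fit are therefore poorly measured. What belongs to the markers and what to the models cannot be told apart.

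Against melanocytes the counts were larger, as they were for all genes. In iMet tumours 24 of 41 differed (58.5%, against 35.1% of the 8651 genes tested), 10 of them higher (16.4% of all genes) and 14 lower (18.7%), with a median difference of -0.26 beside -0.08 over all genes. In iHRAS* tumours 20 of 41 differed (48.8%, against 39.3%), 11 higher (18.1%) and 9 lower (21.3%), with a median of 0.16 beside -0.09. Groups did not overlap for 9 higher and 9 lower genes in iMet tumours (12.6% and 15% of all genes) and for 4 higher and 7 lower in iHRAS* tumours (11.2% and 14.1%), whether called or not. Both comparisons share the same 4 melanocyte arrays, so their values are given side by side and not as separate evidence. With each array centred on its median, the median over all genes was -0.22 in iMet and -0.23 in iHRAS* tumours, and 33.6% and 34% of all calls were higher (46.6% and 46% on the main scaling), with 9 higher and 16 lower, and 10 and 10, among the 57. On the deposited scaling 55.5% and 35.2% of all calls were higher, with 11 and 11, and 9 and 9, among the 57. The count of 11 higher in iHRAS* tumours was 7 without melanocyte array 1 and also without iHRAS* array 4. Without melanocyte arrays 2 and 4 it was 6, and the lower counts fell from 14 to 8 in iMet tumours and from 9 to 3 in iHRAS* tumours.

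**Figure D2:**
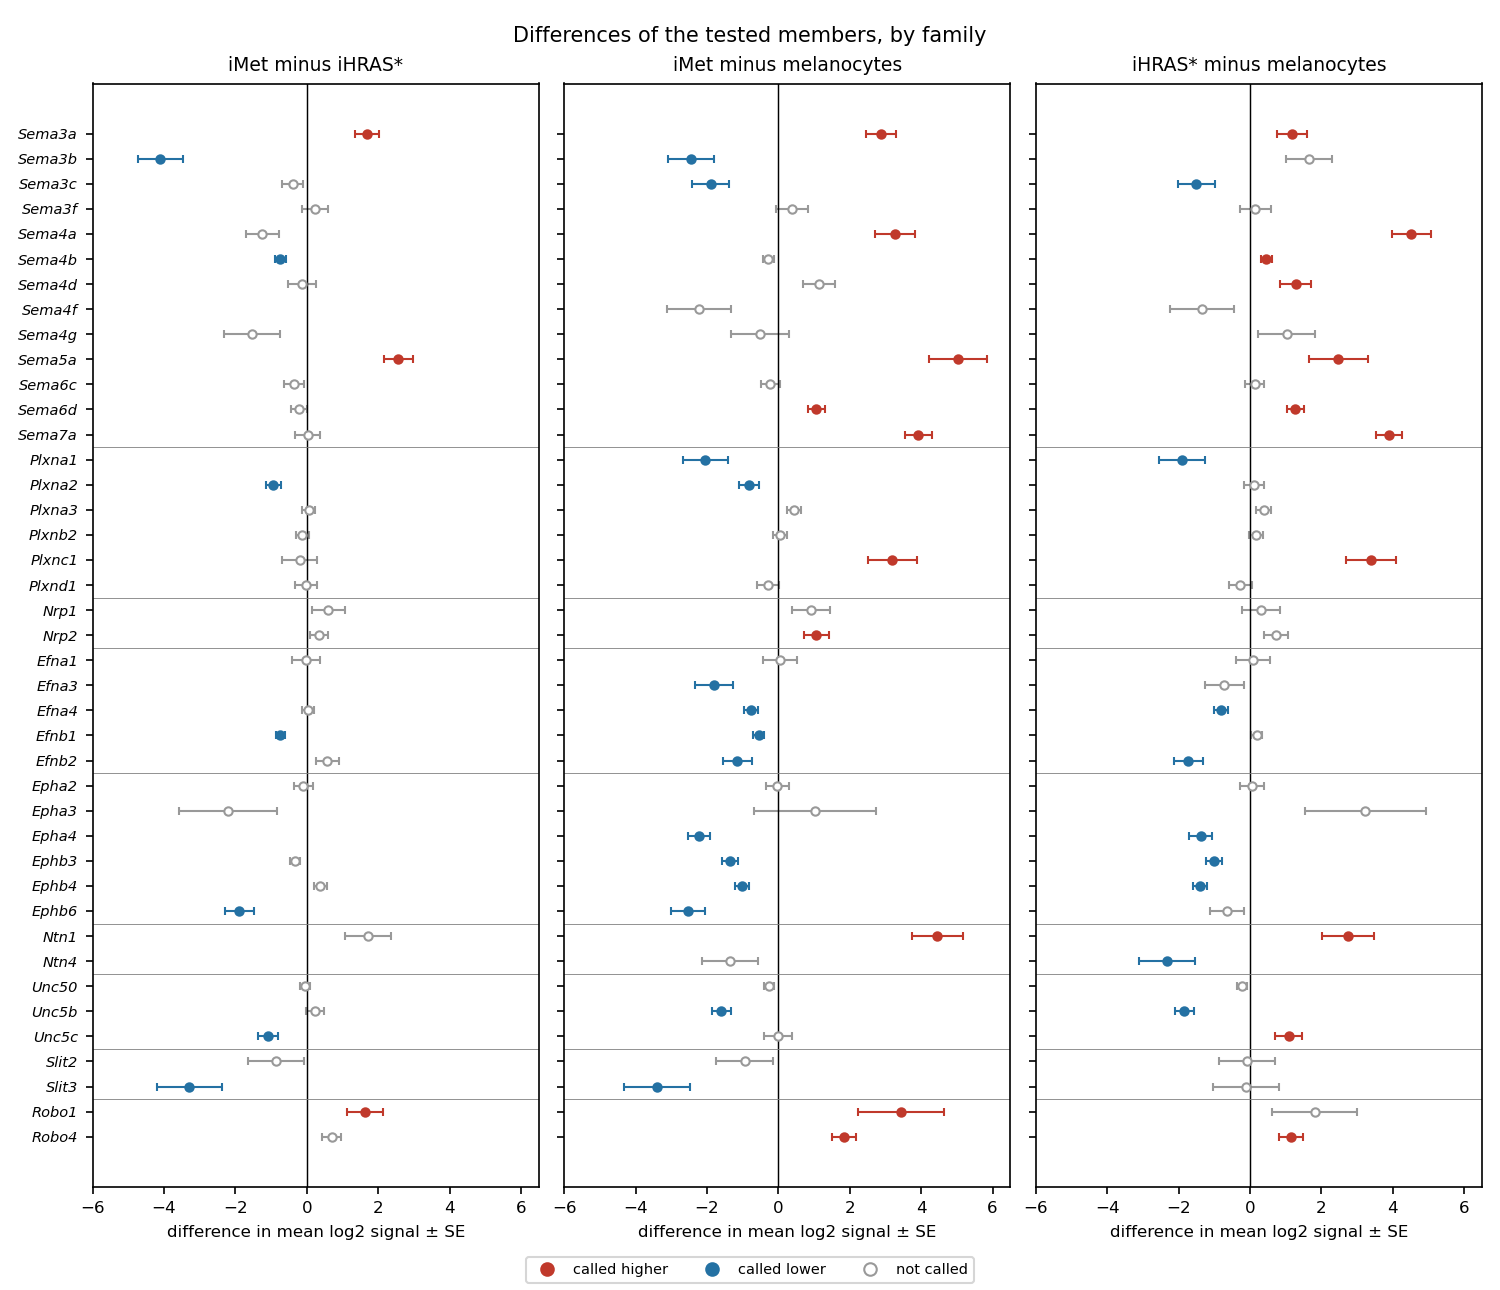
Difference in log2 signal (points) with its standard error (bars) for the 41 genes tested in at least 1 comparison, in a panel each for iMet minus iHRAS* tumours, iMet tumours minus melanocytes and iHRAS* tumours minus melanocytes. Red points passed the test as higher, blue as lower, and open grey points did not pass; no Eph receptor and no ephrin is red in any panel.

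The semaphorin whose signal was higher in both tumour models with the smallest p was Sema7a, a lipid-anchored semaphorin that binds plexin C1 and integrins. Its signal was 7.27, 6.51, 6.76 and 6.20 on the melanocyte arrays. In iMet tumours the lowest, median and highest values were 10.20, 10.51 and 11.30, and in iHRAS* tumours 9.30, 10.71 and 11.56. Every tumour lay above every melanocyte array, while the tumour groups overlapped along most of their range. The difference from melanocytes was 3.92 ± 0.37 (SE) in iMet tumours, a 15.1-fold higher signal (limma adjusted p = 2.06e-06), and 3.90 ± 0.37 or 14.9-fold in iHRAS* tumours (adjusted p = 2.39e-06). Between the models it was 0.02 ± 0.34 (adjusted p = 0.971). Macrophage markers were also higher in both models than in melanocytes: their mean signal was 9.81 to 10.7, 8.27 to 10.02 and 5.27 to 5.72 in iMet tumours, iHRAS* tumours and melanocytes, and their part in the result was not tested.

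Sema4a, a membrane semaphorin read by plexin B and D receptors, was higher in both models too. Melanocytes gave 2.98, 5.43, 3.72 and 4.64, all below the cut-off, where a fold is poorly measured. The lowest, median and highest values were 6.94, 7.29 and 8.32 in iMet tumours and 6.72, 8.79 and 9.80 in iHRAS* tumours. No tumour reached down to the melanocytes, and the differences were 3.27 ± 0.56 in iMet (9.68-fold, limma adjusted p = 0.000444) and 4.53 ± 0.56 in iHRAS* tumours (23.0-fold, adjusted p = 2.7e-05). Between the tumours the difference of -1.25 ± 0.46 did not pass (adjusted p = 0.0716). The other Sema4a probe set was called lower in iMet than in iHRAS* tumours (-1.35, adjusted p = 0.015) and higher in iHRAS* tumours than in melanocytes (2.19, adjusted p = 0.00132), but was not called in iMet tumours (0.84, adjusted p = 0.151). The mean of both put the iMet difference from melanocytes at 2.06 (adjusted p = 0.00275). Sema6d, a class 6 semaphorin that binds plexin A1, differed from melanocytes by less but tightly: it read 6.74, 6.73, 7.04 and 6.65 in melanocytes, 7.34, 7.89 and 8.23 in iMet tumours and 7.40, 8.20 and 8.50 in iHRAS* tumours. These groups stood apart from the melanocytes at 1.06 ± 0.23 (2.09-fold, adjusted p = 0.00274) and 1.27 ± 0.23 (2.41-fold, adjusted p = 0.000724).

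Sema5a, a transmembrane semaphorin with thrombospondin repeats, was the one gene of the 57 that passed between the tumours under each alternative and with each array left out. Its lowest, median and highest values were 6.79, 8.67 and 9.48 in iMet tumours and 5.37, 5.66 and 6.38 in iHRAS* tumours. The models did not overlap, at 2.56 ± 0.41 or 5.88-fold higher in iMet tumours (limma adjusted p = 0.00133). Only 1 of 6 iHRAS* tumours exceeded the cut-off, so this fold is poorly measured. The other Sema5a probe set, with means of 6.88 in iMet and 4.76 in iHRAS* tumours, was too dim to test between the models. Melanocytes read 1.09, 1.16, 5.61 and 5.25, so their arrays 1 and 2 lay far below arrays 3 and 4 and all were under the cut-off. The difference from melanocytes was 5.03 ± 0.82 in iMet tumours (adjusted p = 0.000321) and 2.48 ± 0.82 in iHRAS* tumours (adjusted p = 0.0269), where the groups overlapped. The second of these calls was lost without melanocyte array 1 or array 2, with differences from 1.75 to 3.25 as arrays were left out, and also without iHRAS* arrays 5 and 6 (2.33, adjusted p = 0.0801) or melanocyte arrays 2 and 4 (2.40, adjusted p = 0.068). The other Sema5a probe set gave 1.59 in iMet (adjusted p = 0.0101) and -0.53 in iHRAS* tumours (adjusted p = 0.341) against melanocytes, and the mean of both gave 3.31 (adjusted p = 0.000207) and 0.97 (adjusted p = 0.141).

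The secreted class 3 semaphorins moved in different directions. Sema3a, the classic repellent ligand of neuropilin 1, had lowest, median and highest values of 8.53, 9.73 and 10.05 in iMet tumours and 7.20, 7.65 and 9.16 in iHRAS* tumours. The iHRAS* tumour of array 4 lay above the lowest iMet tumour, array 6, and the difference was 1.68 ± 0.33 or 3.21-fold (limma adjusted p = 0.00443). Melanocytes read 7.17, 6.26, 7.66 and 5.75, below every iMet tumour (2.87 ± 0.42, 7.30-fold, adjusted p = 0.000126). Against iHRAS* tumours the difference of 1.19 ± 0.42 passed (2.28-fold, adjusted p = 0.0347), with overlap. That last call was lost without melanocyte array 2 or 4 or iHRAS* array 4 or 5, and without melanocyte arrays 2 and 4 together it was 0.48 (adjusted p = 0.469).

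Sema3b, a neuropilin ligand described as growth-inhibiting in other tumours, went the other way. It read 2.11, 4.97 and 6.47 (lowest, median and highest) in iMet tumours and 7.80, 9.0 and 9.26 in iHRAS* tumours. Every iMet tumour lay below every iHRAS* tumour, by -4.10 ± 0.63 or 17.2-fold (limma adjusted p = 0.0011), the largest difference of the 36 genes tested between the models. Only 1 of 6 iMet tumours exceeded the cut-off. Melanocytes lay between, at 7.43, 6.90, 7.22 and 6.81: iMet tumours were 5.5-fold lower (-2.46 ± 0.64, adjusted p = 0.00844) without overlap, a call lost without melanocyte arrays 1 and 3 (adjusted p = 0.0719). Each iHRAS* tumour read above each melanocyte array, and that difference of 1.64 ± 0.64 did not pass (adjusted p = 0.054). Another Sema3b probe set was called higher in iHRAS* tumours than in melanocytes (1.74, limma adjusted p = 0.0144). Its melanocyte mean was 5.16, under the cut-off. With keratinocyte and endothelial covariates the difference between the models was -4.72 and did not pass (limma adjusted p = 0.114). On iMet arrays 1 to 6, keratinocyte markers averaged 4.85, 9.15, 7.83, 4.95, 6.74 and 9.05. Sema3b read 4.56, 5.38, 5.72, 3.54, 6.47 and 2.11 on the same arrays, and the part of keratinocytes alone was not tested. Schwann cell markers, whose levels are given above, were also low in iMet tumours, and their part in the Sema3b difference was not tested.

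Sema3c, a ligand that acts on cardiac neural crest, was called lower in both models, and that rested on a pair of melanocyte arrays. Melanocytes read 7.90, 10.42, 7.82 and 10.51, with arrays 2 and 4 high. The tumours lay at 6.72, 7.22 and 8.17 (iMet) and 6.95, 7.70 and 8.28 (iHRAS*), overlapping melanocyte arrays 1 and 3. The differences of -1.90 ± 0.52 (limma adjusted p = 0.0114) and -1.50 ± 0.52 (adjusted p = 0.0331) became -0.59 (adjusted p = 0.298) and -0.20 (adjusted p = 0.748) without melanocyte arrays 2 and 4. In iHRAS* tumours the call was also lost without melanocyte array 2 or 4 alone, or without iHRAS* array 1, 4 or 5. Keratinocyte markers were higher on the same melanocyte arrays, at 9.39 and 9.49 beside 7.63 and 6.85, and their part was not tested.

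Among the remaining class 4 semaphorins, Sema4b and Sema4d had weak calls. Sema4b read 7.19, 7.35 and 7.79 in iMet tumours and 7.77, 8.11 and 8.52 in iHRAS* tumours, which overlapped slightly (-0.74 ± 0.15, 1.67-fold lower in iMet, limma adjusted p = 0.00531). Melanocytes were at 7.66, 7.70, 7.52 and 7.80, between the models, with iHRAS* tumours higher by 0.46 ± 0.16 (adjusted p = 0.0304). With the mean of the gene's probe sets in place of the brightest, both turned sign, to 0.32 (adjusted p = 0.449) between the models and -0.61 (adjusted p = 0.171) against melanocytes. The other Sema4b probe set averaged 2.88, 1.51 and 3.18 in iMet tumours, iHRAS* tumours and melanocytes, under the cut-off throughout. The second call was also lost without melanocyte array 1, 2 or 3 or iHRAS* array 1, 3 or 4. Sema4d, the immune semaphorin read by plexin B receptors, read 7.29, 7.96, 6.64 and 8.09 in melanocytes and averaged 8.63 ± 0.42 (SD, n = 6) in iMet and 8.78 ± 0.95 (n = 6) in iHRAS* tumours. The second passed (1.28 ± 0.44, 2.43-fold, adjusted p = 0.0302) and the first, with all tumours above all melanocytes, did not (1.14 ± 0.44, adjusted p = 0.0548). The Sema4d call was lost without melanocyte array 1 or 3 or iHRAS* array 1, 4 or 5, and with the mean of its probe sets (0.17, adjusted p = 0.837). Sema3f, Sema4f, Sema4g and Sema6c passed no test, although Sema4g read 10.88 and 9.85 on iHRAS* arrays 2 and 3 and between 5.98 and 6.80 on the other 4.

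**Figure D3:**
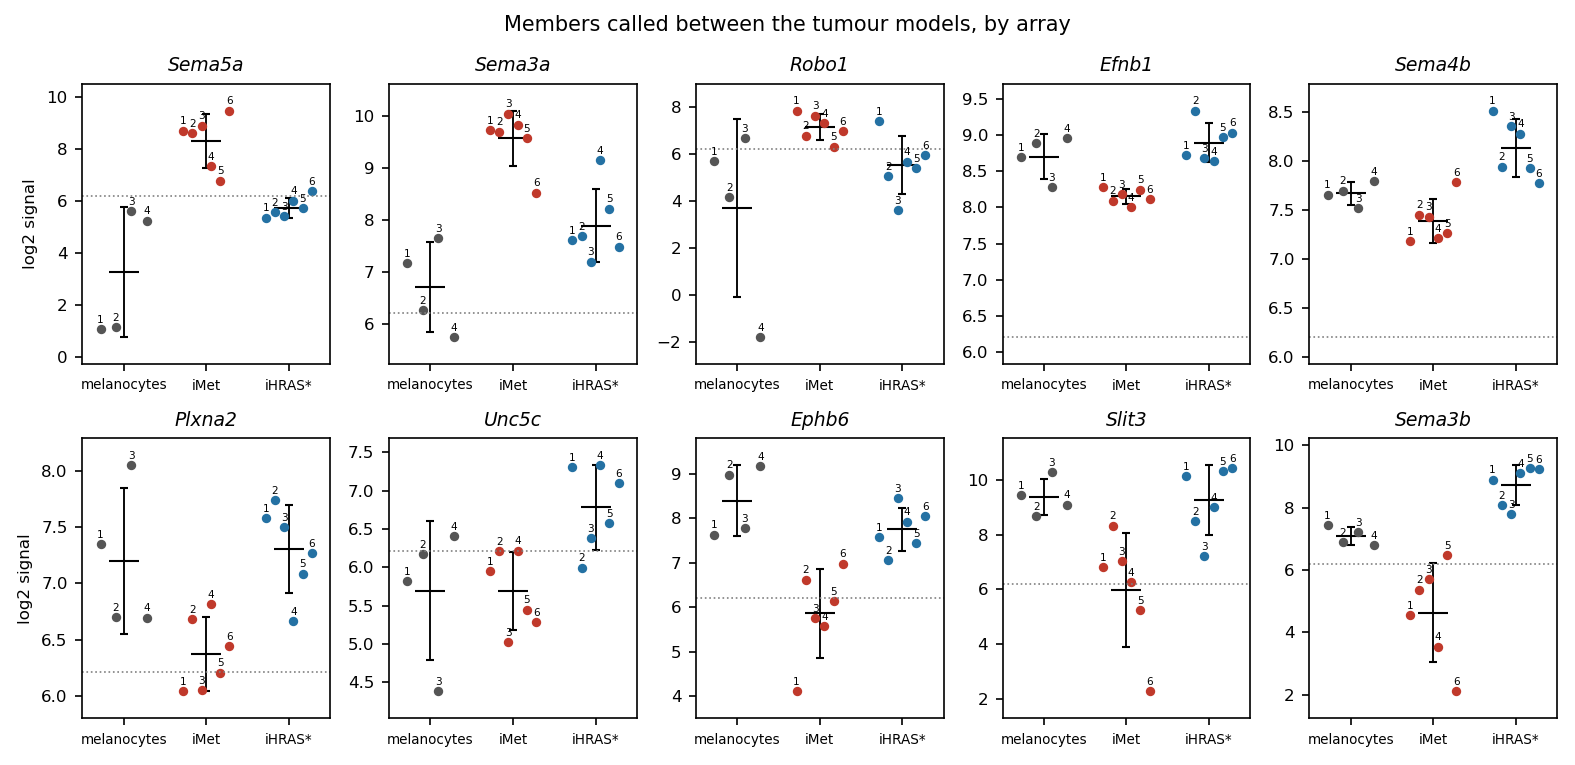
Log2 signal per array (points), with mean and SD, for the 10 genes that passed between the tumour models, in iMet tumours, iHRAS* tumours and melanocytes; the dotted line is the signal cut-off of 6.21. The 6 iMet values of Sema3b all lie below the 6 iHRAS* values, and those of Sema5a all lie above.

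Of the plexins, the semaphorin receptors, Plxnc1 was called higher than melanocytes in both tumour models. This receptor of Sema7a read 4.99, 1.56, 1.83 and 3.80 in melanocytes, 5.78, 6.21 and 6.84 in iMet tumours and 4.34, 7.04 and 7.47 in iHRAS* tumours. The iMet tumours all lay above the melanocytes, at 3.19 ± 0.69 (9.10-fold, limma adjusted p = 0.00246), and the iHRAS* tumours overlapped them at 3.39 ± 0.69 (10.5-fold, adjusted p = 0.00148). Most of these values are near or under the cut-off, and with the mean of its 4 probe sets the differences were 1.26 (adjusted p = 0.152) and 1.07 (adjusted p = 0.206). The lowest iHRAS* values, 4.34 and 5.33, were those of arrays 2 and 3.

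Plxna1 and Plxna2, which signal for neuropilin-bound semaphorins, were lower where they passed. Plxna1 read 7.57, 7.38, 7.01 and 7.47 in melanocytes, 2.15, 5.98 and 6.16 in iMet tumours and 4.69, 5.31 and 6.27 in iHRAS* tumours. Both models lay below all melanocytes, by -2.04 ± 0.64 (4.12-fold, limma adjusted p = 0.0221) and -1.91 ± 0.64 (3.75-fold, adjusted p = 0.0278). The signal cut-off was exceeded by 0 of 6 iMet and 2 of 6 iHRAS* tumours, so these folds are poorly measured. With single arrays left out, the first call was lost without melanocyte array 1. The second was lost without melanocyte array 1, 2 or 4 or iHRAS* array 1 or 4, with adjusted p up to 0.063. Both were lost without melanocyte arrays 1 and 3 (limma adjusted p = 0.0854 and 0.0913) and without melanocyte arrays 2 and 4 (0.112 and 0.137). Plxna2 read 6.04, 6.32 and 6.81 in iMet and 6.67, 7.39 and 7.74 in iHRAS* tumours, 1.91-fold lower in iMet with slight overlap (-0.93 ± 0.20, adjusted p = 0.00645). Melanocytes, at 7.35, 6.70, 8.05 and 6.70, were above iMet tumours by a difference of -0.83 ± 0.27 (adjusted p = 0.0292) that was lost without melanocyte array 1 or 3 or iMet array 1, 3 or 5. It was -0.54 without melanocyte array 3.

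Plxna3, Plxnb2 and Plxnd1 passed no test. Plxnb2, a receptor of class 4 semaphorins, stayed within 10.04 and 11.08 on all 12 tumour arrays, with a difference of -0.12 ± 0.19 between the models (limma adjusted p = 0.694). Of the neuropilins, Nrp2 read 9.22, 9.62 and 10.36 in iMet tumours, 8.92, 9.29 and 10.38 in iHRAS* tumours and 9.12, 8.02, 9.52 and 7.95 in melanocytes. It was 2.09-fold higher in iMet tumours than in melanocytes (1.06 ± 0.35, adjusted p = 0.0268) with overlap, a call lost without melanocyte array 2 or 4 or iMet array 4 or 6, and at 0.40 without both of these melanocyte arrays (adjusted p = 0.446). Nrp1, the Sema3a and VEGF co-receptor, passed in no comparison: it differed by 0.60 ± 0.46 between the models (adjusted p = 0.377), by 0.92 between iMet tumours and melanocytes (adjusted p = 0.194) and by 0.32 between iHRAS* tumours and melanocytes (adjusted p = 0.661).

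No ephrin or Eph receptor was called higher than melanocytes in either model. Of the 5 ephrins tested, 4 were lower in iMet and 2 in iHRAS* tumours, and of the 6 Eph receptors 4 and 3, where 18.7% and 21.3% of all genes were lower. Without melanocyte arrays 2 and 4, all of these ephrin calls were lost in both models, as was that of Ephb3 in iHRAS* tumours. Epha4, a receptor that binds both ephrin classes, read 7.76, 7.51, 7.65 and 8.06 in melanocytes. Its lowest, median and highest values were 4.31, 5.60 and 6.22 in iMet tumours and 5.90, 6.27 and 7.11 in iHRAS* tumours. All tumours lay below all melanocytes, by -2.23 ± 0.32 (4.69-fold, limma adjusted p = 9.85e-05) in iMet and -1.38 ± 0.32 (2.61-fold, adjusted p = 0.00319) in iHRAS* tumours. Since many tumour values are under the cut-off, the models were not tested against each other for Epha4.

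Of the EphB receptors, which bind the transmembrane ephrins, Ephb3 and Ephb4 were lower in both models. Ephb4, the venous receptor of ephrin B2, read 8.87, 9.23, 8.40 and 8.97 in melanocytes, 7.53, 7.74 and 8.41 in iMet and 7.21, 7.43 and 8.0 in iHRAS* tumours. The iHRAS* tumours lay apart (-1.40 ± 0.20, 2.64-fold lower, limma adjusted p = 0.000116) and the highest iMet tumour overlapped the lowest melanocyte (-1.02 ± 0.20, adjusted p = 0.00142). Ephb3 read 7.86, 8.94, 7.90 and 8.84 in melanocytes, 6.80, 7.09 and 7.24 in iMet and 6.92, 7.42 and 7.75 in iHRAS* tumours. It was 2.54-fold lower in iMet (-1.35 ± 0.22, adjusted p = 0.000338) and 2.02-fold lower in iHRAS* tumours (-1.02 ± 0.22, adjusted p = 0.00239), neither overlapping melanocytes. Endothelial markers were higher in the tumours, where these receptors were lower. Keratinocyte markers were 7.63, 9.39, 6.85 and 9.49 on melanocyte arrays 1 to 4, high on the arrays where Ephb3 was high. They were 8.93 to 10.8 in iHRAS* tumours, where Ephb3 was lower. The part of these cell types was not tested. Without melanocyte arrays 2 and 4, the Ephb3 difference in iHRAS* tumours did not pass (adjusted p = 0.0688).

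Ephb6, an Eph receptor whose kinase domain is inactive, was lower in iMet tumours than in both other groups. It read 4.11, 5.95 and 6.98 in iMet tumours, 7.07, 7.76 and 8.45 in iHRAS* tumours and 7.64, 8.99, 7.79 and 9.18 in melanocytes. The iMet tumours lay below all iHRAS* tumours (-1.89 ± 0.42, 3.70-fold, limma adjusted p = 0.0075) and below all melanocytes (-2.53 ± 0.48, 5.78-fold, adjusted p = 0.000976). The iHRAS* tumours differed from melanocytes by -0.65, which did not pass (adjusted p = 0.3). With keratinocyte and endothelial covariates the Ephb6 difference between the models was -0.56 and did not pass (limma adjusted p = 0.747). Epha2 passed no test, and Epha3 was too variable to place: it ran from 2.71 to 6.90 in iMet tumours and 1.04 to 9.90 in iHRAS* tumours, and read 6.01, -0.30, 7.19 and 2.5 in melanocytes.

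Among the ephrins, Efnb1 differed between the models by a small and even amount on its brightest probe set. It read 8.0, 8.15 and 8.28 in iMet tumours and 8.64, 8.84 and 9.34 in iHRAS* tumours, without overlap (-0.74 ± 0.13, 1.67-fold lower in iMet, limma adjusted p = 0.00198). Melanocytes, at 8.70, 8.89, 8.28 and 8.96, were above iMet tumours (-0.55 ± 0.16, adjusted p = 0.0135) and differed from iHRAS* tumours by 0.19 (adjusted p = 0.343). The other Efnb1 probe sets were not called between the models (-0.46, limma adjusted p = 0.209, and -0.38, adjusted p = 0.201). With the mean of all its probe sets the call was lost (-0.53, adjusted p = 0.0589). On the deposited scaling the difference between the models was -0.47 (adjusted p = 0.0509), and without melanocyte arrays 2 and 4 that of iMet tumours from melanocytes was -0.33 (adjusted p = 0.209). Efnb2, the arterial ligand of Ephb4, read 9.30, 10.65, 9.18 and 10.86 in melanocytes, 8.44, 8.77 and 9.32 in iMet and 7.14, 8.45 and 9.14 in iHRAS* tumours. It was 3.30-fold lower in iHRAS* tumours (-1.72 ± 0.41, adjusted p = 0.004) without overlap and -1.15 ± 0.41 lower in iMet tumours (adjusted p = 0.039). The iMet call was lost without melanocyte array 2 or 4 or iMet array 1, 2, 5 or 6, and without melanocyte arrays 2 and 4 together the differences were -0.39 in iMet (adjusted p = 0.538) and -0.97 in iHRAS* tumours (adjusted p = 0.118).

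The neighbouring class A ephrin genes gave different calls, and the difference between them was not tested. Efna4 read 7.51, 8.08, 7.48 and 8.10 in melanocytes, 6.48, 7.09 and 7.49 in iMet and 6.73, 7.02 and 7.34 in iHRAS* tumours. It was lower in both models, by -0.77 ± 0.19 (limma adjusted p = 0.00646) and -0.81 ± 0.19 (adjusted p = 0.00446), and the models differed by 0.03 (adjusted p = 0.912). Without melanocyte arrays 2 and 4 neither difference passed (-0.48, adjusted p = 0.137, and -0.51, adjusted p = 0.114). Efna3 read 7.0, 7.42, 6.35 and 7.04 in melanocytes, 3.66, 5.04 and 6.34 in iMet and 4.27, 6.49 and 7.10 in iHRAS* tumours. Only the iMet difference passed for Efna3 (-1.80 ± 0.54, 3.48-fold, limma adjusted p = 0.0183), and without melanocyte array 2 it did not (adjusted p = 0.0562). Nor did it pass without melanocyte arrays 2 and 4 (-1.52, adjusted p = 0.141). Efna1 passed in no comparison.

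Ntn1, a secreted netrin, had high signal in the tumours and low signal in melanocytes, while its receptor Unc5b had the reverse. Ntn1 read 6.39, 5.58, 7.84 and 5.34 in melanocytes, 9.74, 10.87 and 11.48 (lowest, median and highest) in iMet tumours and 6.57, 9.65 and 10.70 in iHRAS* tumours. All iMet tumours lay above the melanocytes (4.46 ± 0.73, 22.0-fold, limma adjusted p = 0.000316). The iHRAS* tumours overlapped them through arrays 2 and 3, at 7.59 and 6.57 (2.74 ± 0.73, 6.70-fold, adjusted p = 0.00806). Between the models the difference of 1.71 ± 0.65 did not pass (adjusted p = 0.0778). The other Ntn1 probe set differed from melanocytes by 1.34 in iMet (adjusted p = 0.0695) and 0.05 in iHRAS* tumours (adjusted p = 0.952), and the mean of both gave 2.90 (adjusted p = 0.00061) and 1.40 (adjusted p = 0.0419). Unc5b read 10.99, 10.89, 10.82 and 10.57 in melanocytes, 8.37, 9.35 and 9.55 in iMet and 8.45, 8.81 and 9.78 in iHRAS* tumours. All tumours lay below all melanocytes, by -1.60 ± 0.26 (3.03-fold, adjusted p = 0.000318) and -1.84 ± 0.26 (3.58-fold, adjusted p = 9.77e-05), and the models overlapped (0.24, adjusted p = 0.528).

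Fibroblast markers were also higher in the tumours. Their mean signal was 12.25 to 13.21 in iMet and 12.25 to 12.78 in iHRAS* tumours and 10.49, 8.66, 11.32 and 8.07 in melanocytes, whose array 3 was highest for Ntn1 as well. Their part in the Ntn1 difference was not tested. Without melanocyte arrays 2 and 4, the iHRAS* difference for Ntn1 did not pass (adjusted p = 0.142). Unc5c, a second netrin receptor, read 5.02, 5.70 and 6.22 in iMet tumours, 6.00, 6.84 and 7.33 in iHRAS* tumours and 5.82, 6.17, 4.39 and 6.41 in melanocytes. The iMet tumours were 2.13-fold lower than iHRAS* tumours with slight overlap (-1.09 ± 0.28, limma adjusted p = 0.0168) and differed from melanocytes by -0.01 (adjusted p = 0.99). The call between the models was lost with the mean of its probe sets (-0.68, adjusted p = 0.0942) and without iHRAS* arrays 5 and 6 (-1.07, adjusted p = 0.0562). The iHRAS* tumours were 2.12-fold above melanocytes (1.09 ± 0.39, adjusted p = 0.0367), a call lost without melanocyte array 1 or 3 or iHRAS* array 1, 4 or 6, with a difference of 0.65 without melanocyte array 3.

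Ntn4, a basement membrane netrin, was called lower in iHRAS* tumours. It read 6.27, 7.56, 5.62 and 8.53 in melanocytes, 4.57, 5.48 and 6.81 in iMet tumours and 2.94, 4.66 and 7.34 in iHRAS* tumours, all overlapping. The differences were -1.35 in iMet (limma adjusted p = 0.195) and -2.31 ± 0.78 in iHRAS* tumours (4.96-fold, adjusted p = 0.0294), and the second was lost without melanocyte array 2 or 4 or iHRAS* array 2, 3 or 4. The difference between these 2 was not tested for Ntn4. Unc50 averaged 9.76, 9.81 and 10.03 in iMet tumours, iHRAS* tumours and melanocytes and passed no test.

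Slit3, a secreted Robo ligand, had low and uneven signal in iMet tumours. It read 6.82, 8.34, 7.05, 6.28, 5.23 and 2.27 on iMet arrays 1 to 6, against 10.17, 8.51, 7.23, 9.02, 10.33 and 10.45 on iHRAS* arrays 1 to 6 and 9.45, 8.70, 10.30 and 9.11 in melanocytes. The models overlapped through iMet array 2 and iHRAS* array 3, and iMet tumours were 9.76-fold lower (-3.29 ± 0.90, limma adjusted p = 0.022). They lay below all melanocytes (-3.39 ± 0.93, 10.5-fold, adjusted p = 0.011), while iHRAS* tumours differed from melanocytes by -0.11 (adjusted p = 0.938). Without melanocyte arrays 1 and 3 the difference from melanocytes did not pass (-2.91, adjusted p = 0.0968), nor did that between the models without iHRAS* arrays 5 and 6 (-2.74, adjusted p = 0.0969). Slit2 passed no test; its values were 5.16, 8.19 and 8.97 in iMet tumours, 6.31, 9.31 and 9.996 in iHRAS* tumours and 8.18, 8.99, 8.64 and 8.81 in melanocytes. On iHRAS* arrays 2 and 3, Slit2 read 6.93 and 6.31, the lowest of its group.

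Robo1, a Slit receptor, had the opposite direction to Slit3 and weak support. It read 6.30, 7.12 and 7.83 in iMet tumours and 3.60, 5.53 and 7.38 in iHRAS* tumours, overlapping, at 3.08-fold higher in iMet (1.62 ± 0.50, limma adjusted p = 0.0369). The call was lost in 8 of 12 fits that left out 1 tumour, namely iMet array 1, 2, 3, 4 or 6 or iHRAS* array 2, 4 or 5, with differences of 1.24 to 2.00. Without iHRAS* arrays 2 and 3 it was 1.03 (adjusted p = 0.0891). Melanocytes read 5.69, 4.17, 6.67 and -1.77, and the iMet difference of 3.44 ± 1.20 (adjusted p = 0.0363) became 1.62 without melanocyte array 4 (adjusted p = 0.0778). It was lost too without melanocyte array 2 or iMet array 1, 2, 3, 4 or 6.

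Robo4, the Robo of blood vessel lining, read 5.74, 5.49, 4.73 and 4.26 in melanocytes, 6.13, 6.79 and 8.03 in iMet tumours and 5.61, 6.30 and 6.56 in iHRAS* tumours. The iMet tumours lay above all melanocytes (1.85 ± 0.34, 3.59-fold, limma adjusted p = 8e-04). In iHRAS* tumours the difference was 1.15 ± 0.34 (2.22-fold, adjusted p = 0.0146), with overlap, and did not pass without melanocyte array 4 (0.89, adjusted p = 0.0592). The endothelial markers given above followed the same order of groups, with 6 of the 7 below the cut-off in melanocytes, and their part in the Robo4 result was not tested. Between the models Robo4 differed by 0.70 ± 0.27, which did not pass (adjusted p = 0.0907).

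**Figure D4:**
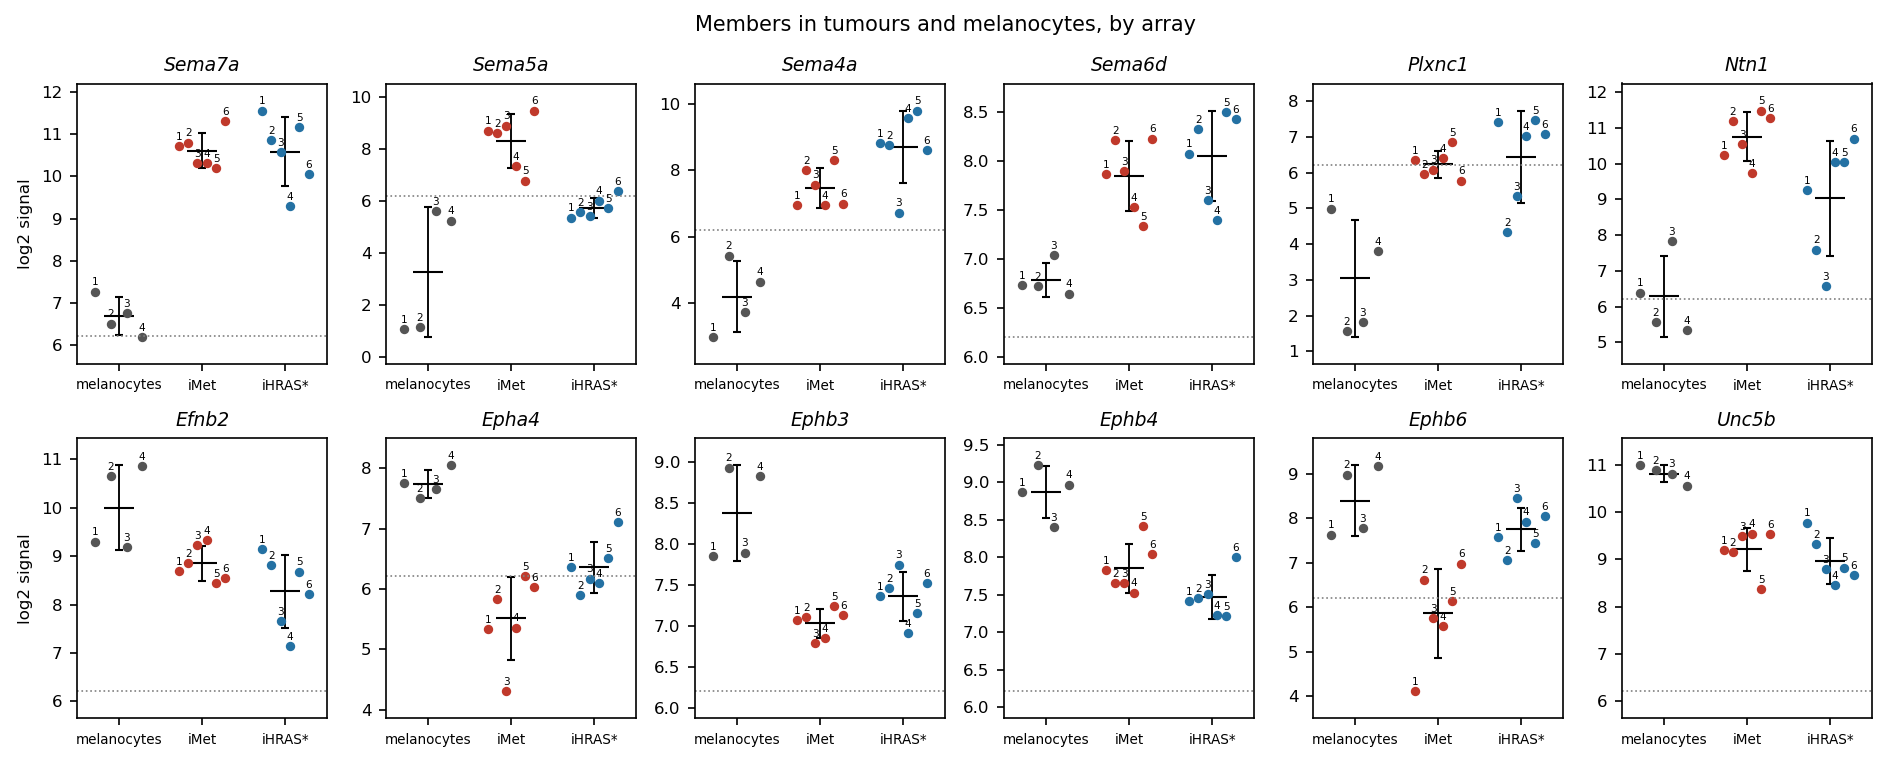
Log2 signal per array (points), with mean and SD, of 12 axon guidance genes in iMet tumours, iHRAS* tumours and melanocytes; the dotted line is the signal cut-off of 6.21. Sema7a, Sema4a and Sema6d lie above the melanocytes in all 12 tumours, and Epha4, Ephb3 and Unc5b lie below them.

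Other probe sets of the same genes gave no call in the opposite direction. Of the 10 genes called between the models, 6 had further probe sets, 9 in number: 1 was called the same way, 2 were not called and 6 were too dim to test. For iMet tumours against melanocytes, 17 further probe sets of 10 genes gave 10 calls the same way, 4 without a call and 3 not tested. For iHRAS* tumours against melanocytes, 17 of 11 genes gave 8, 3 and 6.

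The genes downstream of these ligands and receptors were taken from a list of 63 co-receptors, adaptors and cytoskeletal effectors of axon guidance, 52 of them measured. Between the models 42 were tested, and 4 were higher and 13 lower in iMet tumours (40.5% called), with a median difference of -0.17. Over all genes 20.9% were called, 11.2% higher and 9.7% lower, with a median of 0.03. The calls with the smallest p included the adhesion molecules Nrcam (-7.47 ± 0.55) and L1cam (-3.13 ± 0.27), the proteoglycan Gpc1 (-1.93 ± 0.21), and Mical1 (-1.19 ± 0.16), which acts below plexins. Dpysl3, a collapsin response mediator, was higher (1.81 ± 0.23). Met is on the list too and counts among the 4 higher (2.53 ± 0.35). It is the transgene of the iMet model, so its call follows from the design and is no result about the list. Nrcam and L1cam are also made by Schwann cells, whose markers were lower in iMet tumours in all 5 genes tested; the part of these cells was not tested.

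Against melanocytes, 43 of the listed genes were tested. In iMet tumours 7 were higher and 14 lower (48.8% called, median -0.31), and in iHRAS* tumours 9 were higher and 12 lower (48.8%, median -0.15). The 7 include Met, the transgene of the iMet model (1.18 ± 0.44). Over all genes 35.1% were called in iMet tumours (16.4% higher, 18.7% lower) and 39.3% in iHRAS* tumours (18.1% and 21.3%). Limk2, a kinase that controls cofilin, was lower by -2.26 ± 0.22 in iMet and -1.90 ± 0.22 in iHRAS* tumours. Further genes with small p in iMet tumours were L1cam (-3.46 ± 0.35), Nrcam (-5.04 ± 0.61), Gipc1 (-1.09 ± 0.20) and, higher, the exchange factor Trio (1.20 ± 0.19). In iHRAS* tumours they were Enah (-3.05 ± 0.41), Rras (-1.03 ± 0.22) and, higher, the sheddase Adam10 (0.68 ± 0.13) and the ephexin Ngef (4.10 ± 0.80). The count of 7 higher in iMet tumours was 4 without melanocyte array 1 or 2 or iMet array 1, 5 or 6, and 3 with each array centred on its median.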

How the data were processed

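The authors deposited 1 table of 22690 probe sets on 16 arrays, whose values ran from -4.07 to 14.53 and were read as log2 signal; their summarisation and normalization are not given in the sources used here. The column medians spread by 0.719 (6.56 to 7.28), so values were quantile-normalized (R 4.3.3) after leaving out 64 control probe sets. Quantile normalization makes calls relative to the rest of each array. Of 22626 probe sets, 20380 had 1 symbol in the platform annotation, 691 several and 1555 none, and the brightest probe set stood for each of 12393 genes.

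A gene was tested if it exceeded the 40th percentile on 6 of the 12 tumour arrays (between the models) or on 4 of all 16. Differences were fitted with limma 3.58.1 (lmFit and eBayes, two-sided, checked on simulated data), on the tumour arrays alone between models and on all arrays against melanocytes, with calls at an adjusted p under 0.05 (Benjamini-Hochberg, over all genes tested). Other probe sets of a gene were tested in the same way in a fit over all probe sets. Folds are 2 to the power of a log2 difference. The number of arrays limits the precision.

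The genes and lists were chosen with earlier results of these data known. Genes were named as follows: all those called between the models, the 8 largest increases and decreases against melanocytes, all untested members, members not called in families with a call, and up to 6 listed pathway genes per comparison, of which 1 is not reported here. The other called members and the further probe sets described were named after their values were seen. Replicate numbers did not pair the tumours: same-numbered arrays correlated at -0.225 to 0.107 (6 pairs, 2 over 0.1). Alternatives were the deposited scaling, median centring, no filter, the mean of all probe sets, the replicate block, marker covariates, all 16 arrays in the tumour fit, leaving out each array, and leaving out pairs of arrays that stand apart; leaving out iHRAS* arrays 2 and 3 was added after seeing the data. Promoters came from a RefSeq table (build GRCm38.p6), and no protein sequences were used. Figures were drawn with Python 3.11.15 and matplotlib 3.10.9.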

Additional observations from a re-analysis of the deposited data

Results flagged for a closer look

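In 26 named genes, 78 groups were looked at for an array far from the rest of its group (highest or lowest value separated by more than Dixon's critical value), and 5 held one; chance gives about 1 in 20. Efna3 read 4.27 on iHRAS* array 2, where the nearest iHRAS* tumour was at 6.19. Ephb4 read 8.005 on iHRAS* array 6, above the nearest at 7.51. On iMet array 5, Plxna1 read 2.15 (nearest 5.55) and Unc5b read 8.37 (nearest 9.15). Sema3a read 8.53 on iMet array 6, where the nearest iMet tumour was at 9.58. No melanocyte array was set apart in this way in these genes.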

How the results depend on the processing

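Under all alternatives and with each array left out, the calls that held were Sema5a between the models (1 of 10), 12 of 24 in iMet tumours against melanocytes (Epha4, Ephb3, Ephb4, Ephb6, Ntn1, Robo4, Sema3a, Sema4a, Sema5a, Sema6d, Sema7a and Unc5b), and 6 of 20 in iHRAS* tumours (Epha4, Ephb4, Sema4a, Sema6d, Sema7a and Unc5b). With only single arrays left out, 9, 18 and 11 calls held.

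Between the models, keratinocyte and endothelial covariates left 1 ligand or receptor higher and 0 lower (limma; 2 and 5 at an unadjusted p under 0.05), and 0 higher and 4 lower of the other pathway genes (4 and 8 unadjusted). On the deposited scaling, 7 other pathway genes were higher in place of 4. Taking the mean of all probe sets reversed Sema4b, to 0.32 between the models and -0.61 for iHRAS* tumours against melanocytes.

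In iMet tumours against melanocytes, the other pathway genes that were higher numbered 4 on the deposited scaling, 3 with median centring, 4 without a filter, 3 with the replicate block, 4 without melanocyte arrays 1 and 3 and 3 without melanocyte arrays 2 and 4, in place of 7; with each array left out they ran from 4 to 7. The ligands and receptors that were lower numbered 8 without melanocyte arrays 2 and 4, in place of 14.

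In iHRAS* tumours against melanocytes, the ligands and receptors that were higher numbered 6 without iHRAS* arrays 5 and 6 and 6 without melanocyte arrays 2 and 4, in place of 11, and from 7 to 12 with each array left out. Those that were lower numbered 3 without melanocyte arrays 2 and 4, in place of 9. With the mean of all probe sets, 4 other pathway genes were higher in place of 9. Without iHRAS* arrays 2 and 3, the counts were 2 higher and 10 lower between the models and 13 and 8 against melanocytes.

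The tumours' replicate numbers do not pair the samples. With the replicate block between the models, 3 ligands or receptors were higher and 6 lower; against melanocytes the counts were 8 and 10 in iMet and 8 and 6 in iHRAS* tumours. The causes of these changes were not tested. Many fitted folds rest on signals under the cut-off in 1 group, where the size of a difference is poorly measured.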

Other observations

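Several values belong to no comparison above. Sema3e, a plexin D1 ligand that was too dim to test, read 5.76, 6.40, 6.02 and 7.54 on melanocyte arrays 1 to 4 and averaged 3.90 in iMet and 2.78 in iHRAS* tumours. Nrp1 read 10.16, 8.56, 9.74 and 8.28 on melanocyte arrays 1 to 4, higher on arrays 1 and 3, as did Nrp2. Efnb2, Ephb3, Ephb6 and Sema3c were higher on melanocyte arrays 2 and 4, as was the mean of the keratinocyte markers, whose part was not tested. On iHRAS* arrays 2 and 3, Nrp1 read 8.98 and 7.35 and Sema3b read 8.07 and 7.80, the lowest of that group for both genes. Pericyte and smooth muscle markers averaged 8.23 to 9.63 in iMet tumours, 7.82 to 10.3 in iHRAS* tumours and 6.63 to 7.43 in melanocytes, and the 7 measured melanocyte markers 5.21 to 5.93, 5.90 to 7.93 and 4.55 to 5.83.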
